A study of Mus musculus with 6 samples.

Results

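Wnt ligands, Frizzled receptors, Lrp co-receptors, R-spondins and secreted Wnt inhibitors were examined in mouse colorectal tumours that had grown either in white adipose tissue or in a non-adipose site. The members were chosen by name: gene symbols beginning with Wnt, Fzd, Sfrp, Dkk or Rspo and a digit, together with Wif1, Frzb, Lrp5 and Lrp6. This gave 46 genes of the 22180 that had a probe set of their own, made up of 19 Wnt ligands, 10 Frizzled receptors, 2 Lrp co-receptors, 4 R-spondins, 6 secreted Wnt-binding inhibitors, 4 Dickkopf genes and Fzd10os, a transcript from the opposite strand at Fzd10 that encodes no receptor and was kept apart from the receptors. Each gene was read from its brightest probe set, and Lrp6 and Sfrp2 were the 2 members with more than 1 probe set.

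Mouse colorectal cancer cells had been injected into white adipose tissue in 1 group and into non-adipose tissue in the other, and tumours were taken at 1 to 1.5 cm3. Each group held 3 tumours from 3 mice, each on its own Affymetrix whole-transcript array, and all values are log2 signals as deposited. No source used here gives the cell line, the strain, age and genotype of the hosts, or which tissue the non-adipose site was. A whole tumour was taken in each case, so that fewer cells of a type and less RNA per cell cannot be told apart.

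Wnt proteins are secreted, lipid-modified signals that bind a Frizzled receptor together with Lrp5 or Lrp6 at the cell surface. The signal protects beta-catenin from destruction, and beta-catenin then acts in the nucleus with transcription factors of the TCF/LEF family. Secreted proteins tune the signal: Sfrp proteins, Frzb and Wif1 bind Wnts, Dickkopf proteins block Lrp5 and Lrp6, and R-spondins raise the number of receptors on the surface. Intestinal crypts depend on this pathway, most colorectal cancers carry a mutation that activates it downstream of the receptors, and in fat tissue Wnt10b is a known brake on adipocyte formation.

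The arrays correlated at 0.983 to 0.995 across genes. Colorectal epithelial markers were mixed in all 6 tumours: Krt8 and Krt18 ran from 9.14 to 10.04, whereas Epcam lay between 4.61 and 5.29, Cdx2 between 5.08 and 5.63 and Vil1 between 4.39 and 4.88, all 3 under the 40th percentile of genes by mean signal (29.1, 38.9 and 23.3). Adipocyte markers did not separate the sites either. The mean of the 13 measured was 5.63 to 5.91 in the non-adipose and 5.53 to 5.999 in the white adipose arrays, with Adipoq at 4.14 in each non-adipose array and 4.10 to 4.27 in the white adipose arrays. Keratinocyte and hair follicle markers, by contrast, stood out in single tumours, where the mean over 13 genes reached 7.74 in replicate 1 from white adipose tissue and 6.69 in replicate 3 from the non-adipose site, against 5.24 to 5.64 in the other 4 arrays. Several of these markers were high in both tumours. Krt14 was at 8.54 and 7.23 and Dsc3 at 8.64 and 7.35, against 4.68 to 5.28 in the other arrays. Others differed between the 2 tumours. The epidermal genes Krt1, Krt10 and Flg were at 10.44, 11.59 and 10.54 in the white adipose tumour. The hair follicle keratins Krt25 and Krt71 were at 8.08 and 8.81 in the non-adipose tumour. Skeletal muscle markers were high in non-adipose replicates 1 and 3, at 6.36 and 6.92, against 5.53 to 5.71 elsewhere, and in 10 of the 11 the white adipose mean was below the non-adipose mean. The same held for all 12 proliferation markers, with list means in white adipose arrays of 9.03 to 9.31 beside 9.04 to 9.48, and the part of either list in the results was not tested.

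The clearest difference in these 46 genes was in Sfrp2, a secreted Frizzled-related protein made mainly by stromal cells, which averaged 1.40-fold lower in the white adipose tumours. The co-receptor Lrp5 averaged 1.28-fold lower and the ligand Wnt3 1.20-fold higher. None of these differences passed the test over all genes, and the group as a whole showed no shift. By limma, 0 of 46 members were called at an adjusted p of 0.05, as were 0 of the 22180 genes (0%), and the smallest adjusted p of a member was 0.936. At an unadjusted p under 0.05 there were 3 members, or 6.52% beside 3.79% of all genes. Of these 1 was higher, beside 1.66% of all genes, and 2 were lower, beside 2.13%. Only Sfrp2 differed by at least 0.4 on the log2 scale in either direction, as did 2.75% of all genes.

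Means lay on both sides of 0, with 25 members higher and 21 lower in the white adipose tumours, while 49.7% of all genes were higher. The median difference was 0.0071 on the log2 scale, beside -0.00043 over all genes, and the median size of a difference was 0.083 beside 0.077. With array medians subtracted the members' median was -0.014 beside -0.022 for all genes, and 21 were higher and 25 lower, since the small differences of Wnt1, Wnt3a, Wnt11 and Fzd2 turned negative. Of the 46 members, 20 kept the sign of their difference whichever single array was left out, 11 higher and 9 lower. The groups did not overlap for 2 members, Sfrp2 and Wnt3, which is 4.35% beside 7.31% of all genes. Separation upward was seen in 3.34% of all genes and separation downward in 3.97%.

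**Figure D1:**
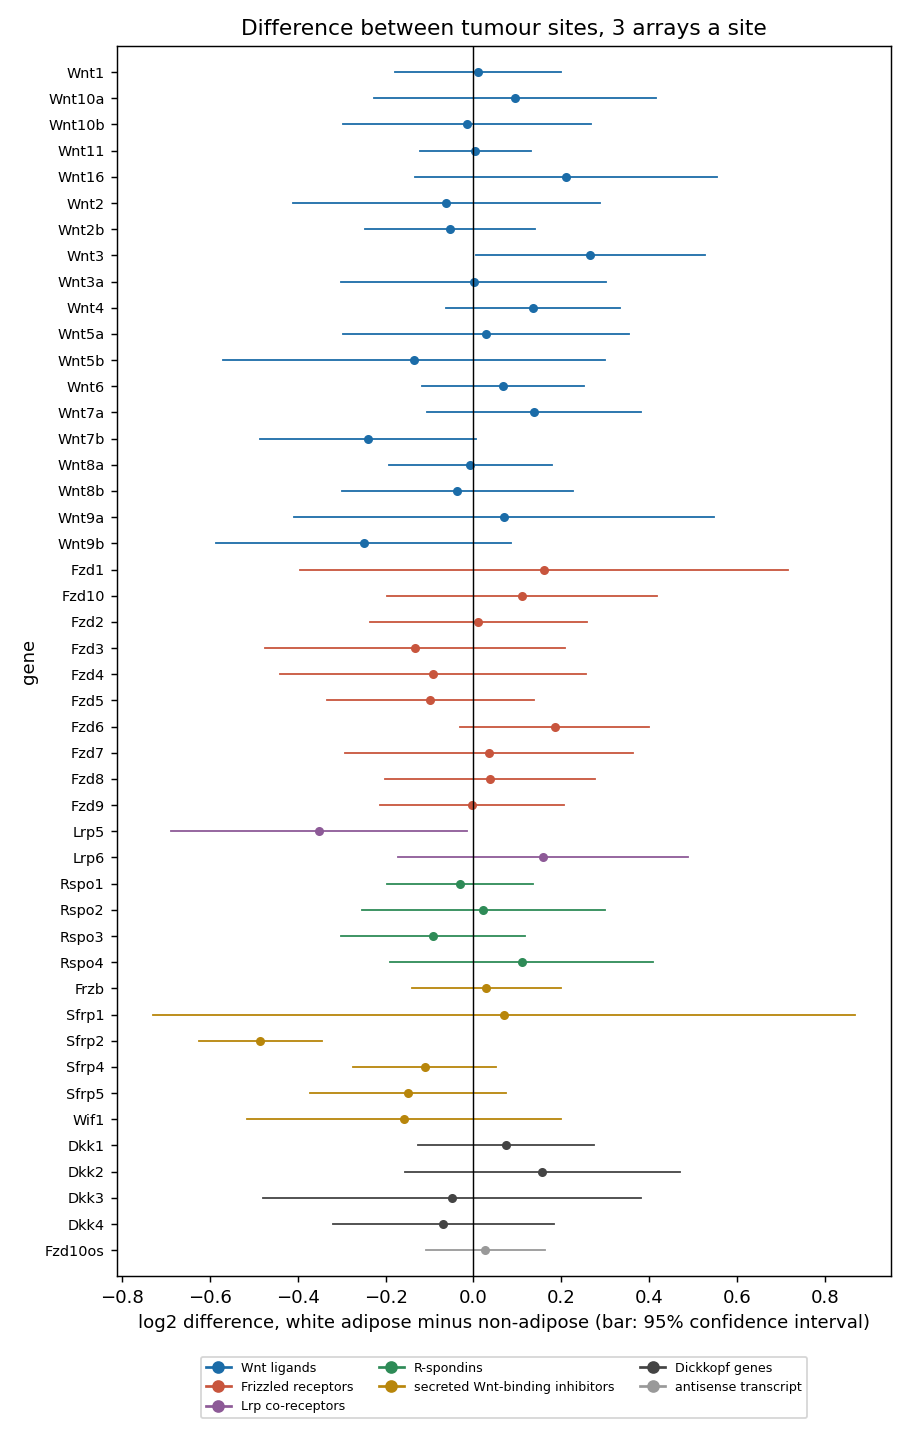
Log2 difference between white adipose and non-adipose tumours (x axis) for each of the 46 genes (y axis, coloured by role), from limma with 3 arrays a site; points are fitted differences and bars 95% confidence intervals. Sfrp2 at -0.48 and Lrp5 at -0.35 lie below 0 with their whole interval and Wnt3 at 0.27 above it, and the other intervals cross 0.

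Many members were dim. By mean signal 29 of 46 lay below the median of all genes, among them 15 of the 19 Wnt ligands but only 3 of the 10 Frizzled receptors and neither Lrp gene. No detection call was at hand, so low values may be background. Some members also carried the same deposited value in several arrays: 9 of 46 (19.6%) had an identical value in at least 3 arrays, beside 13.8% of all genes. Wnt11, a ligand of the pathway branch that does not use beta-catenin, was listed at 5.91 in 4 of 6 arrays, including all 3 white adipose arrays. For such genes the spread between arrays is smaller than the spread between tumours need be.

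The secreted Wnt-binding inhibitors carried the clearest member. Sfrp2 measured 6.28, 6.26 and 6.32 in non-adipose replicates 1, 2 and 3 and 5.75, 5.81 and 5.84 in white adipose replicates 1, 2 and 3. The 3 arrays of each site lay close together and the sites were far apart. The means were 6.28 ± 0.030 (SD, n = 3) and 5.80 ± 0.046 (SD, n = 3), and the log2 difference was -0.48 (SE 0.057, 95% confidence interval -0.62 to -0.34). Its unadjusted limma p of 0.000136 had rank 1 among the 22180 genes, yet the adjusted p was 0.936. With 1 array left out in turn the difference stayed between -0.51 and -0.46 and the rank lay between 1 and 26.

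A dimmer probe set of Sfrp2 gave a smaller difference on the same side. It measured 5.25, 5.36 and 5.30 in the non-adipose and 5.17, 4.88 and 5.21 in the white adipose arrays, a difference of -0.22. All 3 white adipose arrays were again below the non-adipose arrays, by 0.041 at the nearest pair. With the probe sets averaged, the difference was -0.35 (SE 0.068) and Sfrp2 had rank 13.

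The means of the muscle, keratinocyte and fibroblast marker lists varied between arrays and overlapped between the sites. Among the non-adipose arrays Sfrp2 varied by 0.058, while the mean of skeletal muscle markers ran from 5.53 to 6.92 and that of keratinocyte markers from 5.30 to 6.69. Between the sites the mean of the 11 skeletal muscle markers differed by -0.63, on the same side as Sfrp2. Non-adipose replicate 2, however, had the lowest muscle mean of the 6 arrays, at 5.53. Fibroblasts are among the usual sources of Sfrp2, and the 15 fibroblast markers went both ways, with 9 higher and 6 lower means in the white adipose tumours. Fap, a protease of activated fibroblasts, was lower without overlap, at 5.703, 5.79 and 5.98 in the non-adipose and 5.41, 5.65 and 5.67 in the white adipose arrays. Lum and Pdgfra differed by 0.99 and 0.68. The list mean was 8.77 to 9.05 in the non-adipose and 8.85 to 9.21 in the white adipose arrays, and the part of muscle or fibroblasts in the Sfrp2 value was not tested. Without both arrays high in keratinocyte markers, a setting chosen after the data were seen, Sfrp2 differed by -0.44 (SE 0.054), with rank 129 among all genes. In that comparison of 2 arrays with 2, 8 members were at an unadjusted p under 0.05 (17.4%, beside 10.6% of all genes), and the groups did not overlap for 17 (37%, beside 39.2%).

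The promoter of Sfrp2 is shown because Sfrp2 had the smallest unadjusted limma p of the members, though it was not called. The 250 bases before its start lie at chr3:83766071-83766320 on the plus strand of GRCm38.p6, from the RefSeq promoter table. They hold 16 CG dinucleotides, beside a median of 6 over all 32851 windows of that table and 22 over the 32 windows of 29 members.
Sfrp2: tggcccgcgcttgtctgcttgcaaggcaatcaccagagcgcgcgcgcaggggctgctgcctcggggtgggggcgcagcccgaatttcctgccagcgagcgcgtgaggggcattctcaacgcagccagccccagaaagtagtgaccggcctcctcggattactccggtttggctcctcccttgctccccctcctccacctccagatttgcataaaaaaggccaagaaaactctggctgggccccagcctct
The 5-letter core of TCF/LEF sites, CTTTG, was searched on both strands. It has no match in this window. It was found in 14 of the 32 member windows (43.8%) and in 48.6% of all windows.

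Sfrp1, the closest relative of Sfrp2 in this set by function, had the widest spread of the members. Its values were 6.04, 6.12 and 6.11 in the non-adipose tumours and 6.95, 5.64 and 5.89 in the white adipose tumours. White adipose replicate 1 was the highest of the 6 arrays, and white adipose replicates 2 and 3 were the lowest. The difference of 0.069 (SE 0.33; adjusted p = 0.987 by limma) therefore turned to -0.32 (SE 0.094) without white adipose replicate 1, and ran up to 0.33 without white adipose replicate 2. White adipose replicate 1 was also the array with the highest mean of keratinocyte markers, 7.74, and of smooth muscle and pericyte markers, 7.39 against 6.67 to 7.08 in the others. The part of those cells in the Sfrp1 value was not tested.

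The remaining inhibitors differed little. Sfrp5, known as a secreted product of adipocytes, measured 5.09, 5.02 and 4.78 at the non-adipose site and 4.81, 4.83 and 4.81 in white adipose tissue. Non-adipose replicate 3 was the lowest array of all, and the difference was -0.15 (SE 0.092). Sfrp4 differed by -0.11 (SE 0.067), and the Wnt-binding protein Wif1 by -0.16 (SE 0.15). Frzb, also a Frizzled-related protein, differed by 0.029 (SE 0.069). Frzb, Sfrp4 and Sfrp5 were dim, at percentiles 11.9, 26.5 and 27.9 when genes were ordered by signal. Of the 6 genes, 4 had lower and 2 higher means, with a median of -0.13.

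Lrp5 and Lrp6, the co-receptors that Wnt and Frizzled need for the beta-catenin branch, lay on opposite sides of 0. Lrp5 measured 7.33, 6.83 and 7.12 in non-adipose replicates 1, 2 and 3. In white adipose replicates 1, 2 and 3 it measured 6.87, 6.66 and 6.71. Non-adipose replicate 2 lay below white adipose replicate 1, so the groups overlapped. The difference was -0.35 (SE 0.14; adjusted p = 0.936 by limma) and ran from -0.48 without non-adipose replicate 2 to -0.23 without non-adipose replicate 1. In the non-adipose arrays Lrp5 had the lowest value where skeletal muscle markers were lowest (5.53 in replicate 2), but its highest value was in replicate 1 and that of the muscle markers in replicate 3. The part of muscle in the Lrp5 value was not tested.

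Lrp6 measured 9.30, 9.53 and 9.65 in the non-adipose tumours. In the white adipose tumours it measured 9.42, 9.72 and 9.81, a difference of 0.16 (SE 0.14). Its dimmer probe set gave 0.078. White adipose replicate 1 lay among the non-adipose arrays, and without it the difference was 0.27. It shrank to 0.061 when non-adipose replicate 1 was left out, and to 0.079 when white adipose replicate 3 was. Whether Lrp5 and Lrp6 differed from each other in their response was not tested.

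**Figure D2:**
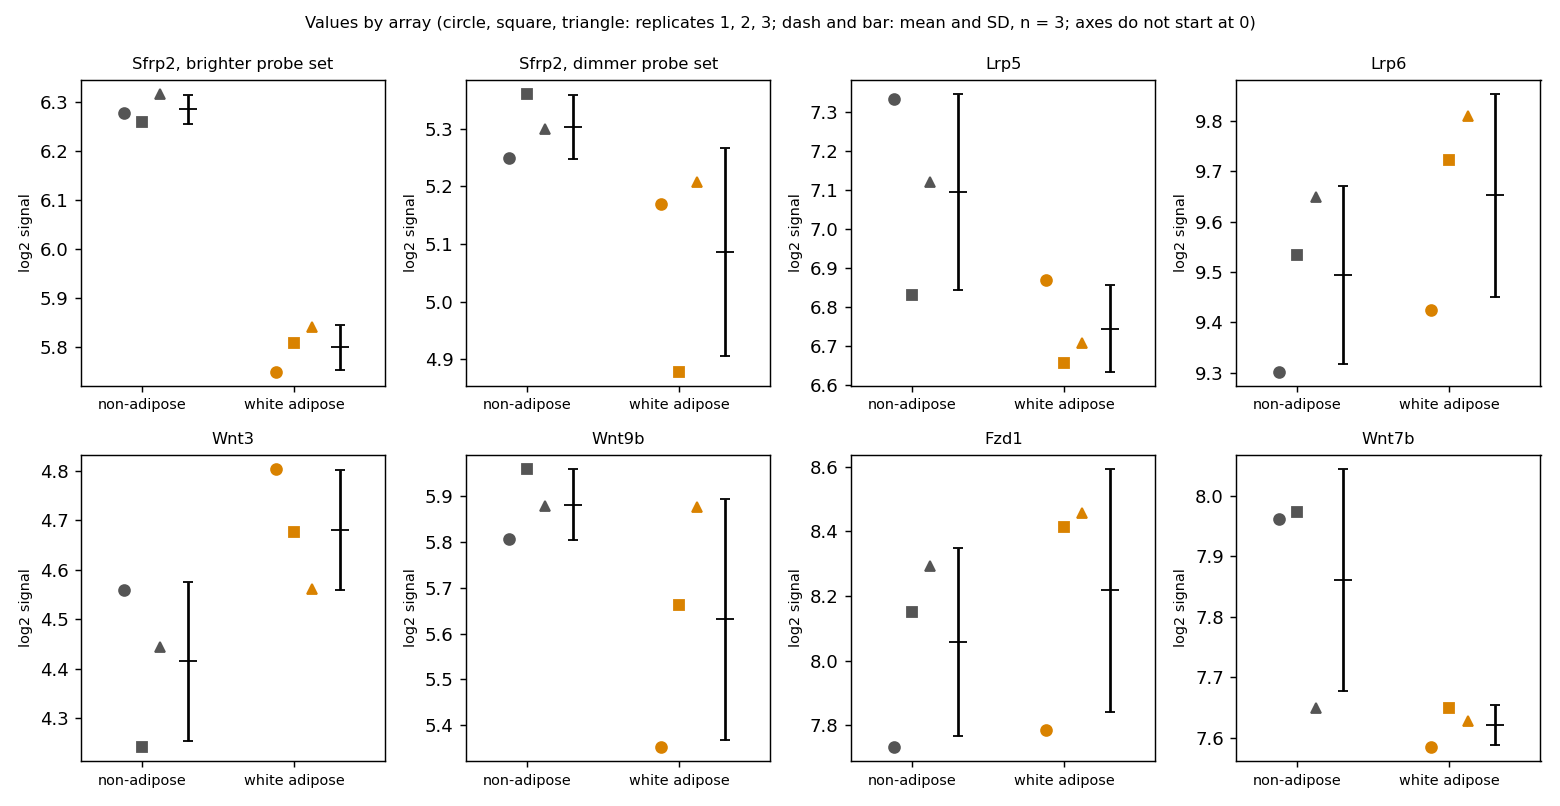
Log2 signal (y axis, not starting at 0) of Sfrp2 by each of its probe sets, Lrp5, Lrp6, Wnt3, Wnt9b, Fzd1 and Wnt7b in the 3 non-adipose (grey) and 3 white adipose (orange) arrays; circles, squares and triangles are replicates 1, 2 and 3, and the dash with its bar is the mean and SD (n = 3). The Sfrp2 groups are apart by both probe sets, Wnt3 barely so, and the other 5 genes overlap or meet.

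The 10 Frizzled receptors, the 7-pass membrane proteins that bind Wnts, had differences between -0.13 and 0.19. Of these 6 were higher and 4 lower, with a median of 0.023 (5 and 5, median 0.0015, with array medians subtracted). At an unadjusted p under 0.05 there were 0 of the 10 receptors, beside 3.79% of all genes. Fzd6, which acts in tissue polarity, had the largest difference of the 10. Fzd6 measured 8.88, 9.16 and 8.96 in the non-adipose and 9.12, 9.22 and 9.22 in the white adipose arrays. Non-adipose replicate 2 reached into the white adipose range. The difference was 0.19 (SE 0.088), or 1.14-fold, and lay between 0.13 and 0.26 with 1 array left out.

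Fzd1 was more variable. It measured 7.73, 8.15 and 8.29 in the non-adipose tumours and 7.78, 8.41 and 8.46 in the white adipose tumours. Replicate 1 was the low array at both sites. The difference of 0.16 (SE 0.23) became 0.38 when white adipose replicate 1 was left out, and -0.0036 when the low non-adipose array was left out.

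The other receptors stayed close to 0 for their error. Fzd3 differed by -0.13 (SE 0.14), Fzd5, a receptor of the intestinal epithelium, by -0.098 (SE 0.097) and Fzd4, which also serves the vascular ligand norrin, by -0.092 (SE 0.14). Fzd4 had its lowest value, 7.15, in white adipose replicate 1 and was at 7.40 to 7.65 in the other arrays. Fzd7, tied to intestinal stem cells, differed by 0.035 (SE 0.13) and Fzd2 by 0.011 (SE 0.10), the latter at -0.010 with array medians subtracted and -0.0044 after quantile normalization. Fzd8, Fzd9 and Fzd10 differed by 0.038, -0.0034 and 0.11 (SE 0.098, 0.085 and 0.13). Fzd10 was among the dimmest members, with values from 2.87 to 3.32. The intervals of the Frizzled genes other than Fzd1 ran at most from -0.47 to 0.42, and that of Fzd1 from -0.40 to 0.71. Fzd10os differed by 0.027 (SE 0.056).

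Among the 19 Wnt ligands 11 had higher and 8 lower means, with a median of 0.0039, or 8 higher and 11 lower with a median of -0.017 when array medians were subtracted, and a range from -0.25 to 0.27. Wnt3, a ligand of the beta-catenin branch that crypt Paneth cells make, had the largest difference upward. Its values were 4.56, 4.24 and 4.44 in the non-adipose and 4.80, 4.68 and 4.56 in the white adipose tumours. The groups did not overlap, but non-adipose replicate 1 and white adipose replicate 3 were only 0.0025 apart, and they overlapped after quantile normalization or subtraction of array medians. The difference was 0.27 (SE 0.11; adjusted p = 0.936 by limma), and the gene was dim, at percentile 21.5 of signal. The difference ran from 0.18 without non-adipose replicate 2 to 0.34 without non-adipose replicate 1.

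Wnt9b, which acts in kidney and craniofacial development, is the next protein-coding gene to Wnt3 and had the largest difference downward. It measured 5.80, 5.96 and 5.88 in the non-adipose and 5.35, 5.66 and 5.88 in the white adipose tumours. White adipose replicate 3 lay within the non-adipose range and white adipose replicate 1 was lowest. The difference was -0.25 (SE 0.14), and it was -0.11 without white adipose replicate 1 but -0.37 without white adipose replicate 3.

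The windows of these neighbours are shown because their differences have opposite signs. That of Wnt3 lies at chr11:103773925-103774174 on the plus strand and that of Wnt9b at chr11:103749822-103750071 on the minus strand (GRCm38.p6, RefSeq), each printed along its own gene with the CTTTG core in capitals.
Wnt3: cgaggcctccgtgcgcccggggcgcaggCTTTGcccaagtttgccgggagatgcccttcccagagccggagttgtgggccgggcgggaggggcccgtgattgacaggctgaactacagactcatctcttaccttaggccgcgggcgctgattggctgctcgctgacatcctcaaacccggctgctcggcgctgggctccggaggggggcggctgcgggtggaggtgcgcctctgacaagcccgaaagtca
Wnt9b: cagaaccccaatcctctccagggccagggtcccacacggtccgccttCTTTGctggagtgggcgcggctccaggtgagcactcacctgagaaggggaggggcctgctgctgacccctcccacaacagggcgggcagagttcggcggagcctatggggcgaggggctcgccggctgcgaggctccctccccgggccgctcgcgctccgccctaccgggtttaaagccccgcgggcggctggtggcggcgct
Each window holds 1 match and 22 CG dinucleotides. Neighbouring protein-coding genes made up 4 pairs of Wnt ligands in the RefSeq order, and 2 of the 4 had means on the same side. Wnt6 and Wnt10a differed by 0.067 and 0.095, and Wnt3a and Wnt9a by 3.33e-05 and 0.070. Wnt10b and Wnt1 differed by -0.014 and 0.010, opposite in sign but close to 0. With array medians subtracted Wnt3a and Wnt1 turned to -0.021 and -0.011, so that only the signs of the pairs Wnt6 and Wnt10a, and Wnt9b and Wnt3, kept their relation.

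Wnt7b, a ligand of lung and vascular development, measured 7.96, 7.97 and 7.65 in the non-adipose tumours. In the white adipose tumours it measured 7.58, 7.65 and 7.63. Non-adipose replicate 3 met the white adipose values, and the other non-adipose arrays were higher. The difference was -0.24 (SE 0.10), and it was -0.35 (SE 0.061) without non-adipose replicate 3, the non-adipose array with the most keratinocyte and muscle marker signal. The part of those cells was not tested.

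Wnt5b, which acts mainly outside the beta-catenin branch, measured 5.35, 5.37 and 5.37 in the non-adipose and 4.83, 5.54 and 5.32 in the white adipose tumours. White adipose replicate 1 was low and white adipose replicate 2 high, while the non-adipose arrays were nearly equal. The difference of -0.13 (SE 0.18) became 0.067 when the low array was left out and -0.29 when the high array was. Wnt9a, a ligand of skeletal and joint development, measured 6.25, 6.48 and 6.37 in the non-adipose and 6.01, 6.77 and 6.53 in the white adipose tumours. It too was lowest in white adipose replicate 1 and highest in white adipose replicate 2. The difference was 0.070 (SE 0.20), 0.28 when white adipose replicate 1 was left out and -0.096 when replicate 2 of that site was.

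Of the ligands linked to fat and stroma, Wnt10b differed by -0.014 (SE 0.12) and Wnt5a, a stromal ligand of the branch without beta-catenin, by 0.029 (SE 0.13). Wnt5a was highest in white adipose replicate 1, at 5.33 against 4.89 to 5.12 in the other arrays. Wnt16, a ligand of skin and bone, differed by 0.21 (SE 0.14) by 0.36 (SE 0.085) when white adipose replicate 1 was left out and by 0.099 when replicate 2 of that site was. Wnt2 and Wnt2b differed by -0.062 and -0.054 (SE 0.14 and 0.080), Wnt4 and Wnt7a by 0.13 and 0.14 (SE 0.081 and 0.10), and Wnt8a and Wnt8b by -0.0069 and -0.037 (SE 0.076 and 0.11).

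R-spondins, which act through the Lgr receptors, had differences between -0.092 and 0.11. Rspo1 differed by -0.031, Rspo2 by 0.023, Rspo3, the main R-spondin of intestinal stroma, by -0.092 and Rspo4 by 0.11 (SE 0.068, 0.11, 0.086 and 0.12). Rspo2 and Rspo3 each had an identical value in 3 arrays. White adipose replicate 1 was the lowest array for Rspo2 and Rspo3, at 5.01 and 4.85.

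The Dickkopf genes encode secreted blockers of Lrp5 and Lrp6, apart from Dkk3, whose role in the pathway is less settled. Dkk3 measured 6.61, 6.68 and 6.53 in the non-adipose and 6.96, 6.39 and 6.32 in the white adipose tumours. As with Sfrp1, white adipose replicate 1 was above and replicates 2 and 3 below every non-adipose array. The difference was -0.049 (SE 0.18), and without white adipose replicate 1 it was -0.25 (SE 0.070), but 0.069 without white adipose replicate 3. Dkk2 was highest in the same array, at 6.03 against 5.57 to 5.77 elsewhere, and differed by 0.16 (SE 0.13), by 0.037 without that array and by 0.26 without white adipose replicate 2. Dkk1, a target of the pathway as well as its inhibitor, differed by 0.074 (SE 0.082) and Dkk4 by -0.068 (SE 0.10).

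White adipose replicate 1 thus set many of the spreads. It was the highest array for 11 of the 46 members (23.9%, beside 18.4% of all genes) and the lowest for 15 (32.6%, beside 21.3%). Sfrp1, Dkk3, Dkk2 and Wnt5a were highest there, and Wnt5b, Wnt9a, Wnt9b and Fzd4 lowest. Marker lists were split in that array. Of the 13 keratinocyte and hair follicle markers, 8 had their highest value there, with Krt10 at 11.59 and Krt1 at 10.44 against 4.98 to 6.16 for those genes in the others. The hair follicle keratins Krt25 and Krt71 were both at 5.01 there, below non-adipose replicate 1 (5.97 and 6.83) and replicate 3 (8.08 and 8.81). Of the 10 smooth muscle and pericyte markers 5 were highest there, such as Cnn1 at 7.03 against 4.92 to 5.73, and 1, Kcnj8, was lowest. Of the 15 fibroblast markers 7 were highest there, such as Postn at 11.92 against 9.82 to 10.81, and 3 were lowest, namely Fap, Pi16 and Fbln1 at 5.41, 5.13 and 8.18. Their part in the members' values was not tested. Without white adipose replicate 1, 5 members were at an unadjusted p under 0.05 (10.9%, beside 8.12% of all genes): Wnt16 higher, and Lrp5, Sfrp1, Sfrp2 and Dkk3 lower. No member or other gene passed over all genes, where the smallest adjusted p of a member was 0.382 by limma. With that array left out the groups did not overlap for 12 members (26.1%, beside 23.8% of all genes).

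**Figure D3:**
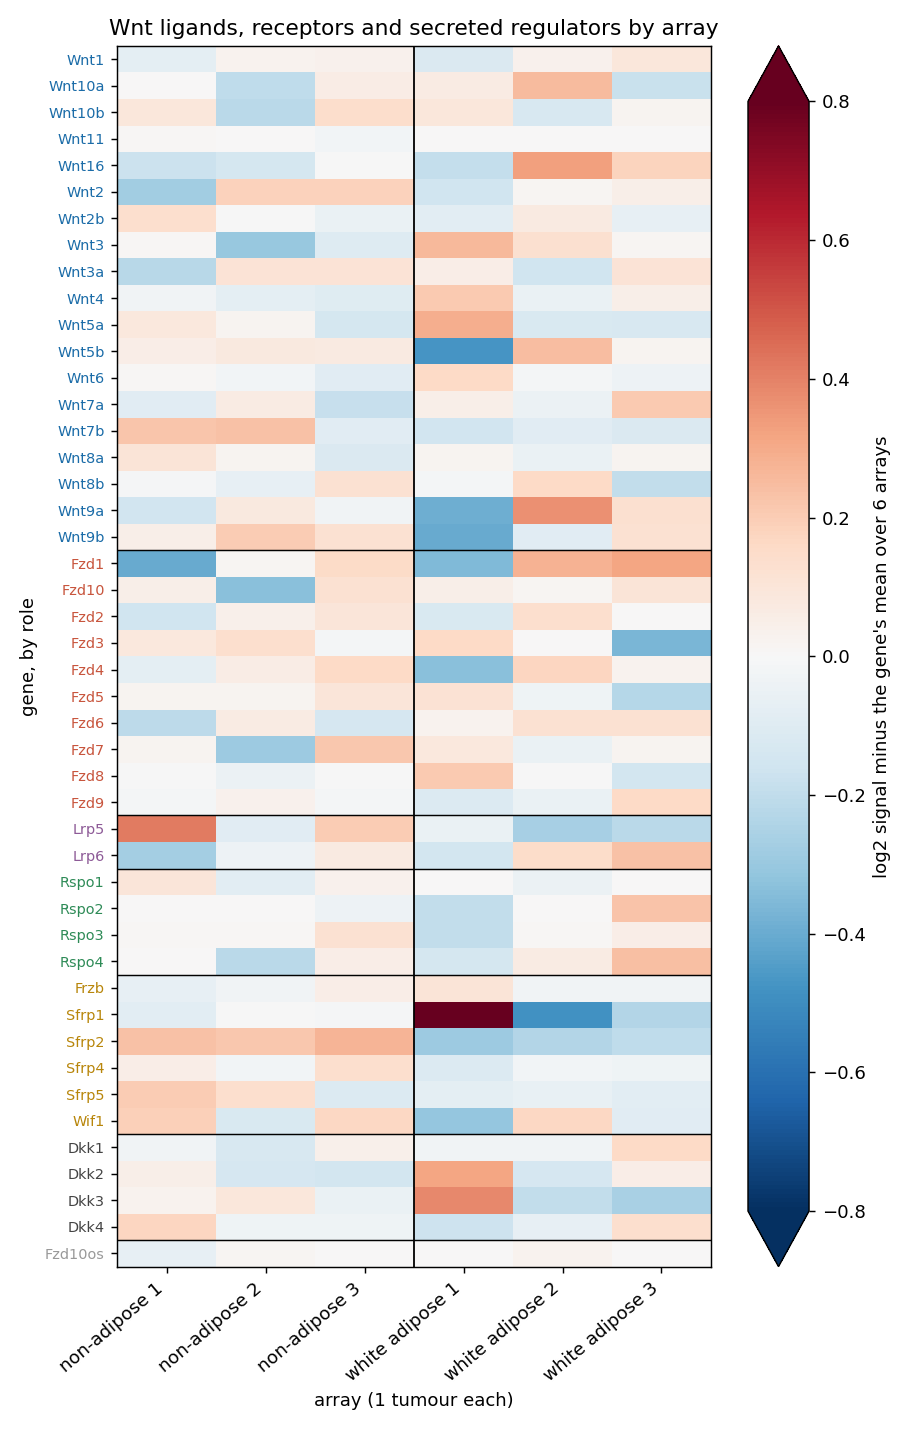
Log2 signal of each gene minus its own mean over the 6 arrays (colour, from -0.8 to 0.8), with genes in rows by role and arrays in columns, the vertical line parting the non-adipose from the white adipose arrays. Sfrp2 is above its mean in all 3 non-adipose arrays and below it in all 3 white adipose arrays, and Sfrp1 is high and Wnt5b low in white adipose replicate 1, with Sfrp1 low in white adipose replicate 2.

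**Figure D4:**
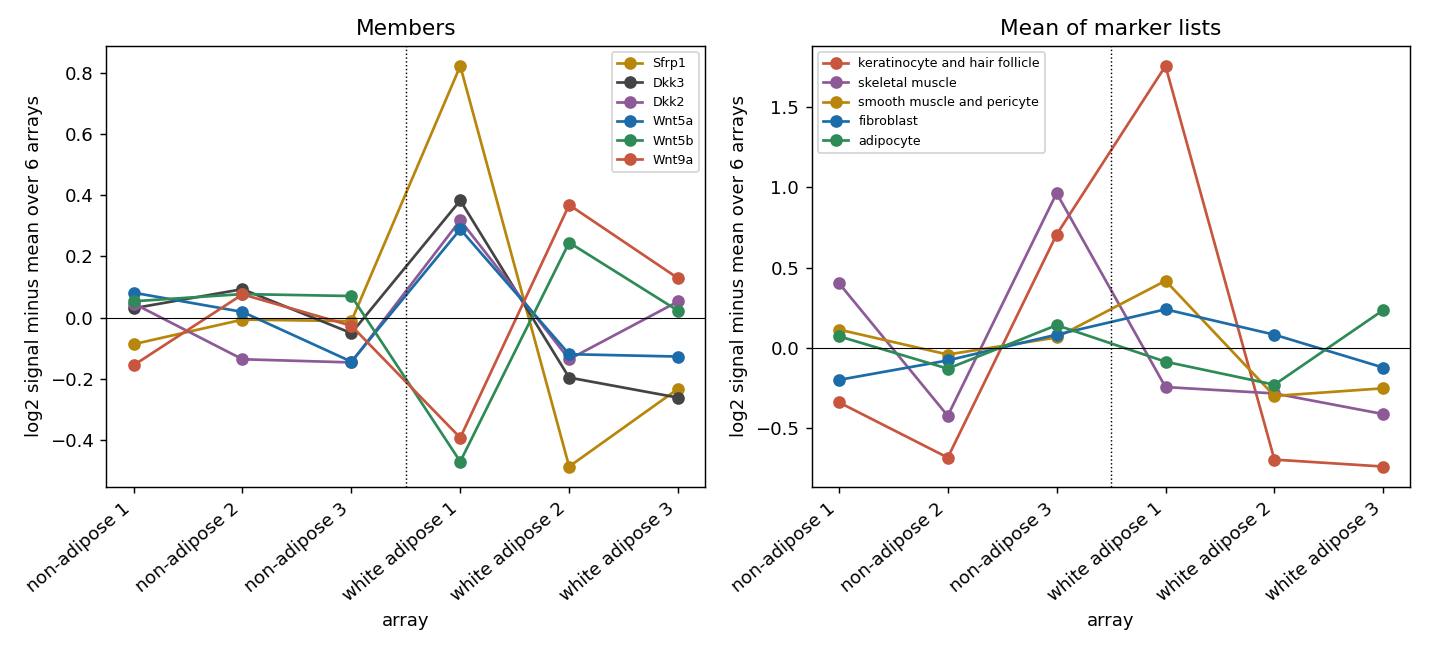
Log2 signal minus the mean over 6 arrays (y axis) in each array (x axis), for 6 members that stand apart in white adipose replicate 1 (left) and for the array means of 5 marker lists (right); lines join the arrays for reading only. In white adipose replicate 1 Sfrp1 reached 6.95 and the keratinocyte and hair follicle list 7.74, the highest values of each.

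Other genes of the pathway gave no call over all genes, and neither did any of the 22180 genes. Of 27 further genes that act in Wnt secretion or at the cell surface, 15 had higher and 12 lower means, and 1 was higher and 2 lower at an unadjusted p under 0.05 (11.1%, beside 3.79% of all genes). Gpc4, a glypican that carries Wnts on its heparan sulphate chains, measured 5.18, 5.02 and 5.24 in the non-adipose and 4.77, 4.30 and 4.35 in the white adipose tumours. Every white adipose array was below every non-adipose array. The difference was -0.67 (SE 0.14; adjusted p = 0.936 by limma), between -0.82 and -0.59 with 1 array left out, at percentile 26.2 by mean signal.

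Adgra2, the partner of Reck in the recognition of Wnt7a and Wnt7b by brain vessels, measured 7.44, 7.49 and 7.42 in the non-adipose and 7.93, 7.72 and 7.70 in the white adipose tumours. The groups did not overlap. The difference was 0.33 (SE 0.080; adjusted p = 0.936 by limma), between 0.26 and 0.37 with 1 array left out. Reck itself differed by 0.0995 (SE 0.10). Tpbg, a membrane protein that turns Wnt signalling away from the beta-catenin branch, differed by -0.28 (SE 0.11) and Wls, the carrier that takes Wnts to the cell surface, by 0.25 (SE 0.14). The Tpbg groups were barely apart, with 8.11 the highest white adipose and 8.12 the lowest non-adipose value. Of the 27 genes, 2 were separated upward (Adgra2 and Sost) and 2 downward (Gpc4 and Tpbg), beside 3.34% and 3.97% of all genes.

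Of 33 measured genes of the cytoplasmic and nuclear steps, 17 had higher and 16 lower means. At an unadjusted p under 0.05 there were 0 of them, beside 3.79% of all genes. The 4 with the smallest p were the tankyrase Tnks at 0.14 (SE 0.076), the scaffold Axin1 at -0.14 (SE 0.092), the co-repressor Tle4 at 0.33 (SE 0.23) and the beta-catenin cofactor Bcl9 at -0.11 (SE 0.080). Ctnnb1, which encodes beta-catenin, differed by 0.058 (SE 0.069), and the feedback target Axin2 by 0.14 (SE 0.16). Of 10 planar polarity genes, 3 had higher and 7 lower means, and again 0 were at an unadjusted p under 0.05, beside the same 3.79%. The 4 with the smallest p were Prickle2 at -0.28 (SE 0.16), Vangl2 at -0.098 (SE 0.071), Prickle1 at 0.060 (SE 0.068) and Invs at 0.051 (SE 0.064).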

How the data were processed

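The deposited table gave 41345 probe sets for 6 arrays, with no gaps. Values ran from 0.973 to 13.6, with array medians of 5.66 to 5.69, and this deposited scale was read as log2. The submitters' processing notes name Affymetrix Expression Console; no source used here gives its version, background correction, summarisation or normalization. RNA was labelled with a whole-transcript kit, per the labels' protocols. A normalization that equalises arrays would remove a change shared by most genes.

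Probe sets with exactly 1 gene symbol in the platform annotation (23521; 1814 had several and 16010 none there) were kept, and the brightest per gene gave 22180 genes. All 46 members matched the RefSeq table by Entrez identifier, and 29 had a promoter window. The lmFit and eBayes functions of limma 3.58.1 (R 4.3.3) compared white adipose with non-adipose tumours over all 6 arrays, no filter and no replicate block. The Benjamini-Hochberg adjustment ran over all genes, with a threshold of 0.05. The fit was checked on simulated data with changes larger than that of any member, so the check does not cover differences as small as the members'. The number of arrays limits precision: the median SE was 0.0972. Scan dates and slides were not used here, so batches were not tested.

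Members and lists (186 of 195 listed genes measured) were chosen with earlier results of these data known. Members with an unadjusted p under 0.05, a difference of at least 0.4, groups that did not overlap or 1 of the 8 largest SDs were named with every array's value, and all Frizzled and Lrp genes were named, with up to 4 genes by smallest p from each pathway list. Array values of Wnt7b, Sfrp5, Fzd6, Lrp6, Gpc4 and Adgra2, and the genes named besides, were added after the values were seen. Alternatives were other normalizations, a filter, array weights, a variance trend, averaged probe sets, a replicate block and leaving out arrays.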

Additional observations from a re-analysis of the deposited data

How the results depend on the processing

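No member was called over all genes under any of the 14 alternatives, and no other gene was called under any of them either. The smallest adjusted p of a member ranged from 0.306 to 0.993. The count of 3 members at an unadjusted p under 0.05 became 5 with array weights (10.9%, beside 7.31% of all genes). It ranged from 1 to 5 with 1 array left out (beside 2.89% to 8.12% of all genes). Among genes above the median signal only it was again 3, there of 17 members (17.6%, beside 4.62% of all genes), all lower. Those were Sfrp2, Lrp5 and Wnt7b, since the dim Wnt3 was filtered out. With quantile normalization or array medians subtracted the count was 2 (4.35%, beside 3.71% and 3.93% of all genes), namely Sfrp2 and Lrp5. Wnt3 had an unadjusted limma p of 0.066 and 0.065 there, 0.076 with array weights and 0.051 with a variance trend. Without white adipose replicate 1 and non-adipose replicate 3, chosen after the data were seen, the count was 8 (17.4%, beside 10.6% of all genes). The 2 members whose groups did not overlap became 4 after quantile normalization, all lower (8.7%, beside 10% of all genes), and 1 with genes above the median signal only (5.88%, beside 8.37%). They ranged from 4 to 12 with 1 array left out (8.7% to 26.1%, beside 14.1% to 23.8% of all genes) and were 17 (37%, beside 39.2% of all genes) without those 2 arrays. The members' median moved to -0.014 with array medians subtracted. Among genes above the median signal, the Wnt ligands' median became 0.069 over 4 genes and that of the Wnt-binding inhibitors -0.21 over 2 genes. The dimmer members were left out of these medians, and the differences of the remaining members were unchanged. Other medians moved by less than the SD between arrays. Sfrp1 changed sign with array weights (-0.16) and without those 2 arrays (-0.31), and Wnt5b without them (0.069). With 1 array left out Sfrp1 ranged from -0.32 to 0.33, Dkk3 from -0.25 to 0.069, Fzd1 from -0.0036 to 0.38, Wnt5b from -0.29 to 0.067 and Wnt9a from -0.096 to 0.28. Sfrp2, Lrp5, Wnt3, Wnt9b, Gpc4, Adgra2 and Tpbg kept their sign under every alternative that could be fitted. The cause of these moves was not tested. No source used here states that replicate numbers are paired, and 3 arrays a site are too few to decide it. Deviations of same-numbered arrays correlated at 0.14, 0.064 and 0.064. Those of differently numbered arrays from the 2 sites correlated at -0.18 to 0.086, mostly below 0. Not every array correlated best with its own number. With the replicate block, 0 members were called, as were 0% of all genes. At an unadjusted p under 0.05 there were 3 members with the block (6.52%, beside 4.87% of all genes). The fitted differences, medians included, were the same as without it (Sfrp2 at -0.48).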
